A study of Mus musculus with 2 samples.

Results

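The genes of WNT signalling were examined in *Sox9*GFPHi chondrospheres, colonies that single sorted chondrocytes form in methylcellulose. The group held every gene whose symbol names a WNT ligand, a frizzled receptor, an SFRP, DKK or R-spondin protein or an LGR4 to LGR6 receptor. *Frzb*, *Wif1*, *Notum*, *Lrp4*, *Lrp5*, *Lrp6*, *Ror1*, *Ror2*, *Axin2*, *Lef1* and *Tcf7* were added by name. It came to 48 of the 23628 genes measured, chosen by symbol and not by level. *Wnt3*, *Wnt3a*, *Wnt7a*, *Wnt8a*, *Wnt8b*, *Wnt9b* and *Dkk4* have symbols of these kinds but were not among the 23628 genes.

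WNT proteins are secreted, lipid-modified ligands that bind frizzled receptors. Together with the co-receptors LRP5 and LRP6 they stabilize β-catenin, which then acts with TCF and LEF factors on target genes, while other ligands act through ROR receptors without β-catenin. R-spondins, bound by LGR receptors, keep frizzled receptors at the cell surface, and secreted antagonists capture either the ligand or the LRP co-receptor. In cartilage the pathway takes part in joint formation and in the passage of chondrocytes to hypertrophy, and the antagonist encoded by *Frzb* is known for its abundance in articular cartilage.

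Both RNA-sequencing libraries, replicate 1 and replicate 2, belonged to 1 condition. The cells came from femoral heads of pups of the homozygous *Sox9*IRES-EGFP reporter line at postnatal day 7, in which GFP is made from the *Sox9* transcript, and those with the highest GFP and without the markers CD31, CD45 and Ter119 were sorted. They were grown for weeks at low oxygen in a medium with serum, FGF2, BMP4, IGF1, LIF and TGF-β1, with no WNT protein among the added factors. Pups were harvested separately in the study, but the labels do not say which animals, or how many colonies, went into each library. With 1 condition there was no test between groups, and differences between the libraries describe the spread between replicates.

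Expression was deposited as CPM, read counts scaled to a common library total, in which the smallest steps correspond to a depth of 4.33e+07 reads for replicate 1 and 4.22e+07 reads for replicate 2. The level of 3 reads, taken as the smallest that this depth can show, was 0.0693 CPM in replicate 1 and, in replicate 2, 0.0712 CPM and covers counting error only. All 10 chondrocyte markers were above 1 CPM in the mean. They summed to 184515 CPM in replicate 1 against 128333 CPM in replicate 2, most of it *Col2a1* at 148953 and 100682 CPM. In CPM, *Sox9*, at 252 and 279, and *Hapln1*, at 396 and 544, were higher in replicate 2. The others were lower, and *Matn3* differed most, at 741 and 53.1 CPM. For *Sox9* the log2 ratio of replicate 2 to replicate 1 was 0.15, below the 0.30 median of genes averaging 1 CPM or more. The 8 markers of hypertrophic chondrocytes and osteoblasts summed to 1758 and 2164 CPM, nearly all of it *Col10a1* at 1752 and 2109 CPM. *Dmp1*, an osteocyte gene, had 0.116 and 40.4 CPM, and *Sp7* had 1.96 and 6.81 CPM. *Ihh*, *Ibsp*, *Bglap*, *Bglap2* and *Alpl* had at most 3.27 CPM in either library. The 8 fibroblast markers summed to 2663 and 1326 CPM. Nearly all of it was *Col1a1* at 1166 and 584 CPM, *Dcn* at 879 and 267 CPM and *Col3a1* at 616 and 471 CPM. *Pdgfra* had 2.03 and 2.71 CPM, *Thy1*, *Cd34* and *Dpt* had at most 0.973 CPM in either library, and *Pi16* was at 0 in both. The 3 tendon markers summed to 50.5 and 47.3 CPM, from *Scx* and *Mkx*, with *Tnmd* at 0 in both. Markers of endothelium, blood and skeletal muscle summed to at most 2.68 CPM in either library, and those of adipocytes to 6.89 and 6.62 CPM, all of it from *Fabp4*. In bulk RNA, fewer cells of a type and less RNA per cell cannot be told apart.

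A mean of at least 1 CPM was reached by 28 of the 48 WNT genes (58.3%), against 53.5% of all genes listed. At least 3 reads in both libraries were found for 33 of them (68.8%), against 68.5% of all genes. *Lgr6*, *Lgr4* and *Lrp6* exceeded 100 CPM in the mean and 19 genes exceeded 10 CPM. *Wnt2*, *Wnt16*, *Fzd10* and *Rspo4* were listed at 0 in both libraries. Levels of the 48 genes summed to 1344 CPM in replicate 1 and, in replicate 2, 1712 CPM, of which *Lgr6* made up 41.4% and 55.0%.

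**Figure D1:**
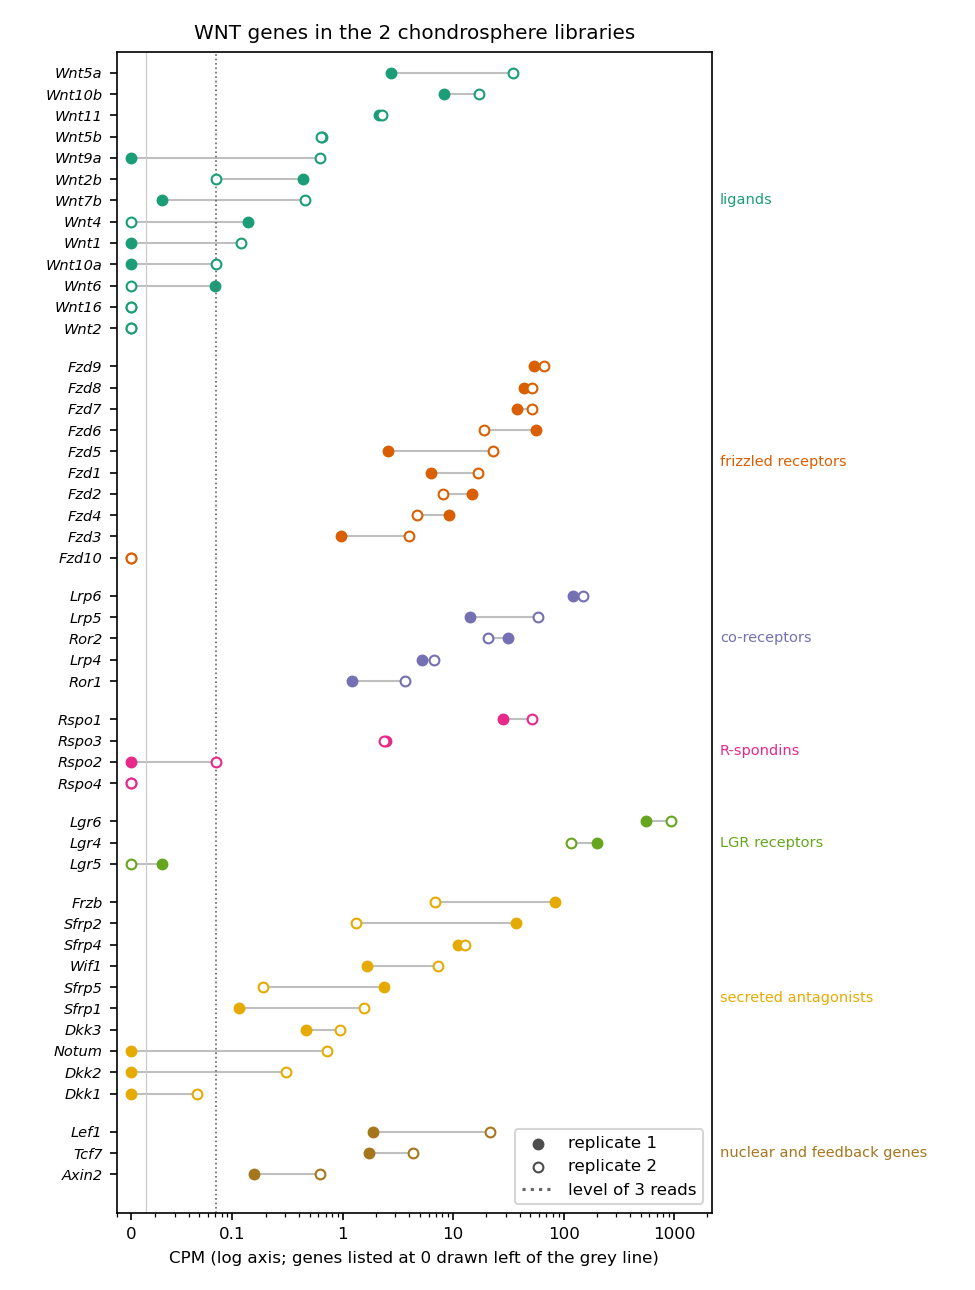
CPM of each of the 48 WNT genes in replicate 1 (filled) and replicate 2 (open), on a log axis and grouped by role, with a line joining the libraries and a dotted line at the level of 3 reads. *Lgr6* lies highest at 557 and 942 CPM, and *Frzb*, *Sfrp2*, *Wnt5a* and *Lef1* have long joining lines.

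Ratios between the libraries were wide for many of these genes. Of the 28 that averaged 1 CPM or more, 10 were more than 2-fold higher in replicate 2 on the log2(CPM + 0.1) scale (35.7%), against 11.4% of the 12631 genes at that level. A further 4 were more than 2-fold lower (14.3%), against 3.71%. The higher genes were *Wnt5a*, *Wnt10b*, *Fzd1*, *Fzd3*, *Fzd5*, *Lrp5*, *Ror1*, *Wif1*, *Lef1* and *Tcf7*, and the lower ones *Fzd6*, *Frzb*, *Sfrp2* and *Sfrp5*. Between 1 and 10 CPM, 25.8% of all genes and 5 of 9 WNT genes passed 2-fold in either direction. Between 10 and 100 CPM it was 8.41% of all genes and 9 of 16 WNT genes. For the 28 genes the log2 ratio between the libraries had a median of 0.32, for all genes 0.30, whereas its SD across genes was 1.95 and 0.83. The median counting error of the 28 log2 ratios was 0.10.

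The shift of 0.30 in all genes depends on how the libraries are scaled, and the 10 highest genes took 43.4% of the summed CPM in replicate 1 against 34.7% in replicate 2. With the libraries scaled to each other by trimmed-mean log ratios, 9 of the 28 genes were more than 2-fold higher in replicate 2, against 7.5% of all genes, and 7 were more than 2-fold lower, against 5.89%. *Wnt10b* left the higher group, at a log2 ratio of 0.74. *Fzd2*, *Fzd4* and *Lgr4* joined the lower group, at -1.16, -1.24 and -1.08, and the small ratios of *Wnt11*, *Fzd8* and *Sfrp4* changed sign. The part of the marker differences between the libraries in these ratios was not tested.

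**Figure D2:**
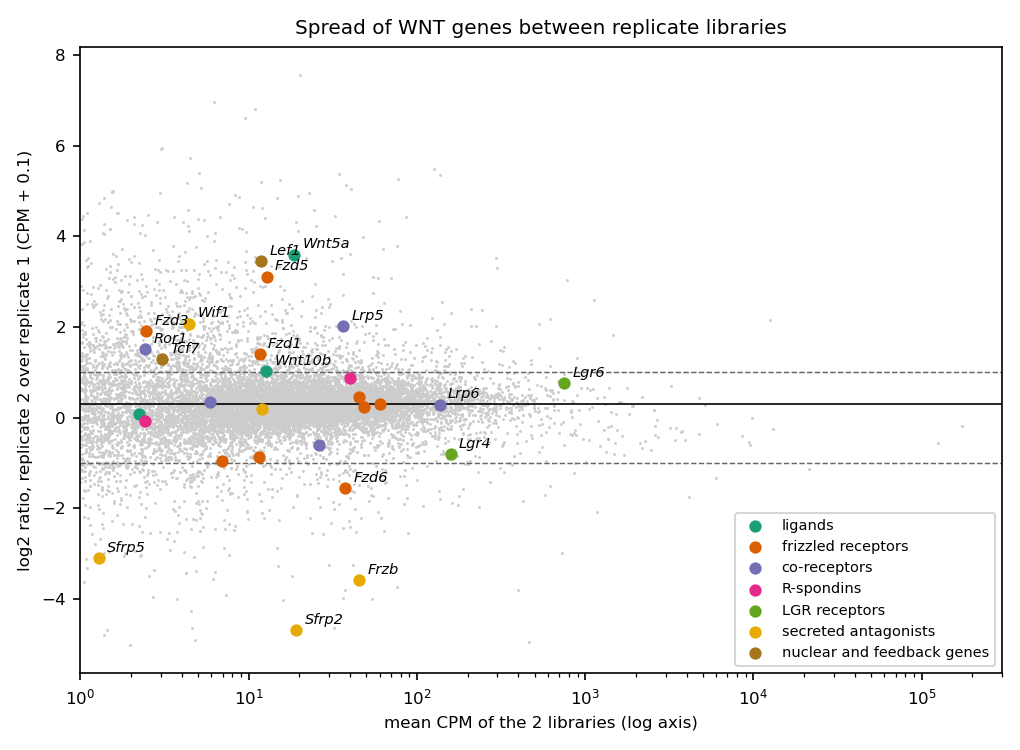
Log2 ratio of replicate 2 to replicate 1 against the mean CPM on a log axis, for every gene averaging 1 CPM or more (grey) and the 28 WNT genes (coloured by role), with dashed lines at 2-fold and a solid line at the median of all genes, 0.30. *Wnt5a*, *Lef1* and *Fzd5* stand above 3 and *Sfrp5*, *Frzb* and *Sfrp2* below -3.

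The start regions of 3 of these genes are shown for orientation: *Lgr6* was the highest, *Frzb* was among those that differed most between the libraries, and *Axin2* is widely used as a readout of β-catenin. Each window is RefSeq sequence of GRCm38.p6, 250 bases before to 50 bases after the start that RefSeq annotates, written 5′ to 3′ along the gene. The windows lie at chr1:135105227-135105526 on the minus strand, chr2:80447347-80447646 on the minus strand and chr11:108920099-108920398 on the plus strand. Capitals mark CTTTGA or its reverse complement TCAAAG, a core motif of TCF and LEF factors.
*Lgr6*: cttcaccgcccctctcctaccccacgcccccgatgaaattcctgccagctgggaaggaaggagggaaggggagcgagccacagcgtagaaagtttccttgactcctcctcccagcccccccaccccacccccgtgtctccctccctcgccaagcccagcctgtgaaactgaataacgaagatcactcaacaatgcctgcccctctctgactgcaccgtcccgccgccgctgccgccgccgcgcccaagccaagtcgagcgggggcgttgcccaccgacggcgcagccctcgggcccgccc
*Frzb*: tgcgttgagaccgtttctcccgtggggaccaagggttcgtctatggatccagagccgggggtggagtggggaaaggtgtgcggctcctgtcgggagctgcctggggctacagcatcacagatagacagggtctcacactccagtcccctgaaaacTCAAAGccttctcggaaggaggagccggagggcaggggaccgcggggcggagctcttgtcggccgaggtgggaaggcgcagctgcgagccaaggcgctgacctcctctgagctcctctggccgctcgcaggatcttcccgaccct
*Axin2*: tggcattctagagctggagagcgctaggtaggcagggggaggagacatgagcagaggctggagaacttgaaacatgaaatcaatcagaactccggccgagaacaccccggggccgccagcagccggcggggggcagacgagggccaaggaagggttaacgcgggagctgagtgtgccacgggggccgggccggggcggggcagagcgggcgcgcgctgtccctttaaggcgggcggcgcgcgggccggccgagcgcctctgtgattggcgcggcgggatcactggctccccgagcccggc

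The *Frzb* window held the motif once, with its first base at position 156 of the window. The GENCODE interval of *Frzb* begins further upstream than the RefSeq start, and the motif lies inside that interval. The windows of *Lgr6* and *Axin2* held no match. On either strand, the motif was found in 16.0% of all 32851 windows of that length and in 7 of the 38 windows that matched 31 of the WNT genes (18.4%). These 7 belonged to *Dkk1*, *Frzb*, *Fzd1*, *Lef1*, *Ror1*, *Wnt11* and *Wnt5b*. A match is a description of letters and not of binding.

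Among the 13 ligands, *Wnt5a*, *Wnt10b* and *Wnt11* reached a mean of 1 CPM. *Wnt5a*, on chromosome 14 of GRCm38 from 28504750 to 28527448, encodes a ligand that acts largely without β-catenin. It had 2.75 CPM in replicate 1 against 34.5 CPM in replicate 2, which was 12.5 times as much, from about 119 and 1454 reads. *Wnt10b*, on chromosome 15 from 98770712 to 98778150, encodes a ligand that acts through β-catenin and favours bone formation, and had 8.32 and 17.0 CPM. *Wnt11*, another ligand that acts largely without β-catenin, hardly differed at 2.15 and 2.28 CPM.

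The order of the ligands was not settled by these libraries. Divided by the length of the annotated exons, *Wnt10b* had 3.73 ± 1.81 CPM per kilobase, *Wnt5a* 2.38 ± 2.87 and *Wnt11* 0.535 ± 0.0220 (SD, n = 2). *Wnt10b* exceeded *Wnt5a* by a log2 ratio of 2.80 in replicate 1 but 0.18 in replicate 2. *Wnt5b*, a relative of *Wnt5a* found in growth plate cartilage, had 0.647 and 0.641 CPM, close to the same level in both.

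The other ligands were near or below the smallest level shown by the depth in at least 1 library. *Wnt2b* had 0.439 and 0.0712 CPM, and *Wnt7b* had 0.0231 and 0.451 CPM, equal to 1 read in replicate 1. *Wnt9a*, a gene of the forming joint, was listed at 0 in replicate 1 but at 0.617 CPM in replicate 2. *Wnt4*, expressed in the same place, and *Wnt6* had 0.139 and 0.0693 CPM in replicate 1 and were both listed at 0 in the other library. *Wnt1* and *Wnt10a* were listed at 0 in replicate 1 but at 0.119 and 0.0712 CPM in replicate 2.

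The 10 frizzled genes summed to 226 CPM in replicate 1 and, in replicate 2, 246 CPM, an even total over members that moved in both directions. *Fzd9*, on chromosome 5 from 135248938 to 135251230, encodes a receptor known for a role in bone formation and had 54.1 and 66.3 CPM. *Fzd8* had 44.2 and 52.1 CPM and *Fzd7* 37.8 and 52.2 CPM. Per kilobase of exon *Fzd9* stood first at 26.3 ± 3.76 CPM, *Fzd7* had 9.92 ± 2.25 CPM and *Fzd8* 8.06 ± 0.924 CPM (SD, n = 2). The log2 ratio of *Fzd9* to *Fzd7* was 1.42 ± 0.12 (SD, n = 2), larger than the spread between the libraries, and *Fzd7* exceeded *Fzd8* by 0.29 ± 0.16 in the same order in both.

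Other frizzled genes changed places between the libraries. *Fzd6*, which encodes a receptor with a known part in tissue polarity, had 55.7 CPM in replicate 1 against 19.0 CPM in replicate 2. *Fzd5* went the other way with 2.56 and 23.0 CPM, 8.96 times as much in replicate 2. *Fzd1* had 6.31 and 16.9 CPM, *Fzd2* 14.9 and 8.09 CPM, *Fzd4* 9.22 and 4.70 CPM and *Fzd3*, a polarity receptor, 0.970 and 3.94 CPM. So *Fzd6* was above *Fzd8* per kilobase in replicate 1 and below it in replicate 2, and *Fzd2* and *Fzd1* also exchanged order.

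Of the co-receptors, *Lrp6* was the highest in CPM and *Lrp5* differed most. *Lrp6*, on chromosome 6 (134446476 to 134566965), was measured at 123 CPM in replicate 1 and, in replicate 2, 150 CPM. *Lrp5*, on chromosome 19 from 3584828 to 3686564, encodes its close relative, known for its part in bone mass, and had 14.2 and 58.3 CPM. Per kilobase of exon *Lrp6* exceeded *Lrp5* by a log2 ratio of 2.62 in replicate 1 and 0.87 in replicate 2, so the distance narrowed and the order held. *Lrp4*, whose protein also binds sclerostin, had 5.18 and 6.64 CPM.

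*Ror2*, which encodes a receptor for WNT5A and is needed for normal growth of cartilage, had 31.4 CPM in replicate 1 against 20.5 CPM in replicate 2. *Ror1* had 1.20 and 3.63 CPM. Per kilobase *Ror2* had 6.13 ± 1.82 CPM against 9.96 ± 1.40 CPM for *Lrp6* (SD, n = 2), a log2 ratio of 0.73 ± 0.64 in favour of *Lrp6*. *Ror2* was above *Lrp5* in replicate 1 and below it in replicate 2.

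The R-spondin receptor gene *Lgr6* had the highest level of the 48 genes in both libraries, in CPM and per kilobase of exon. It lies on chromosome 1 from 134983301 to 135105276 and had 557 CPM in replicate 1 and, in replicate 2, 942 CPM. Per kilobase of exon its level was 109 ± 39.8 CPM (SD, n = 2), which ranked 249 among the 22967 genes with an annotated length. *Lgr4*, on chromosome 2 (109917647 to 110014257), was measured at 201 and 116 CPM. *Lgr5*, which marks stem cells of the gut, had 0.0231 CPM in replicate 1, equal to 1 read, and was listed at 0 in the other library.

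*Lgr6* and *Lgr4* moved apart between the libraries. *Lgr6* exceeded *Lgr4* per kilobase by a log2 ratio of 1.25 in replicate 1 and 2.80 in replicate 2, a mean of 2.02 ± 1.10 (SD, n = 2) that was larger than the spread. The difference was 2.37-fold in replicate 1 and 6.98-fold in replicate 2.

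Of the R-spondin ligands, *Rspo1* was expressed well above the others. *Rspo1*, on chromosome 4 (124986430 to 125009099), was measured at 28.3 CPM in replicate 1 against 52.0 CPM in replicate 2. *Rspo3* had 2.47 and 2.35 CPM, *Rspo2* was listed at 0 and at 0.0712 CPM, and *Rspo4* was at 0 in both. The log2 ratio of *Rspo1* to *Rspo3* per kilobase was 4.67 ± 0.67 (SD, n = 2). Summed per kilobase, the LGR receptors exceeded the R-spondins 7.50-fold in replicate 1 and 5.70-fold in replicate 2.

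The 10 secreted antagonists summed to 137 CPM in replicate 1 and, in replicate 2, 32.0 CPM, and *Frzb* and *Sfrp2* carried the difference. *Frzb*, on chromosome 2 from 80411970 to 80447625, encodes a soluble protein with a frizzled-like domain that binds WNT ligands. It had 83.9 CPM in replicate 1 against 6.88 CPM in replicate 2, 12.2-fold less, from about 3632 and 290 reads. *Sfrp2*, on chromosome 3 from 83766321 to 83774316, encodes a protein of the same family and had 37.0 and 1.33 CPM, 27.8-fold less in replicate 2.

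The rest of this family differed in both directions. *Sfrp5* had 2.38 CPM in replicate 1 and, in replicate 2, 0.190 CPM, the latter from about 8 reads. *Sfrp4* stayed close, at 11.1 and 12.7 CPM. *Sfrp1*, with a mean below 1 CPM, had 0.116 and 1.57 CPM, from about 5 and 66 reads. On these few reads it was higher in the library in which *Frzb* and *Sfrp2* were lower. Per kilobase *Frzb* exceeded *Sfrp2* in both libraries by a mean log2 ratio of 1.19 ± 0.84 (SD, n = 2), whereas *Sfrp2* stood above *Sfrp4* in replicate 1 and below it in replicate 2.

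*Wif1*, whose protein also binds WNT ligands and which is known from cartilage, had 1.64 CPM in replicate 1 against 7.24 CPM in replicate 2. *Notum*, which encodes an enzyme that removes the lipid from WNT proteins, was listed at 0 in replicate 1 but at 0.726 CPM in replicate 2. The DKK proteins bind LRP co-receptors, apart from the divergent DKK3, and their genes were low. *Dkk3* had 0.462 and 0.949 CPM, and *Dkk2* and *Dkk1* were listed at 0 in replicate 1 but at 0.308 and 0.0474 CPM in replicate 2. Per kilobase, *Frzb* and the SFRP genes together exceeded the DKK genes by a log2 ratio of 8.42 in replicate 1 and 4.02 in replicate 2. In replicate 1 the DKK sum was *Dkk3* alone, from about 20 reads, so that ratio does not compare them with antagonists that bind LRP co-receptors. In replicate 2 *Dkk3* made up most of the DKK sum, at 0.283 CPM per kilobase. *Dkk2* had 0.0832 and *Dkk1* 0.0196, so the ratio of replicate 2 makes that comparison only in small part.

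The balance of antagonists and ligands differed between the libraries. Summed per kilobase of exon, the antagonists had 47.8 CPM and the ligands 3.73 CPM in replicate 1, a ratio of 12.8. In replicate 2 they had 9.92 and 10.6 CPM, nearly equal at a ratio of 0.937. The mean log2 ratio of 1.79 was smaller than its SD of 2.67, so neither class was above the other beyond the spread.

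**Figure D3:**
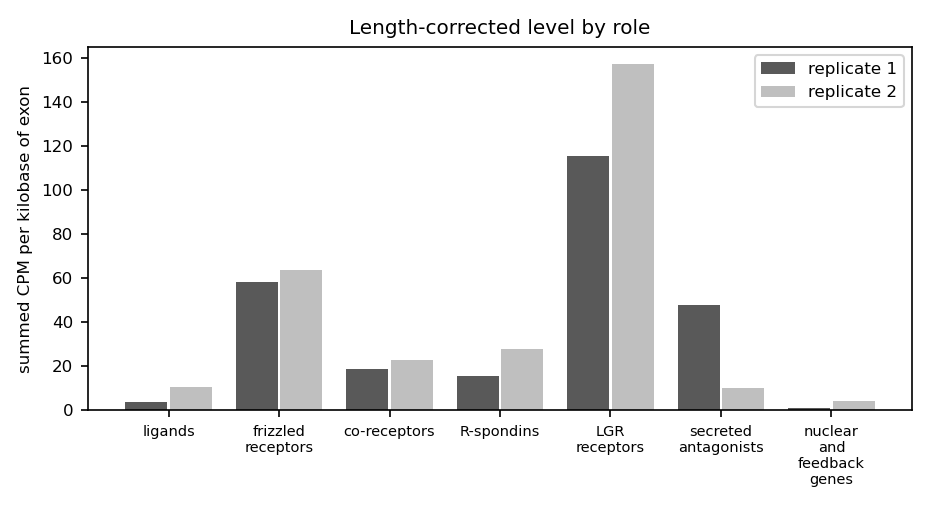
Summed CPM per kilobase of exon of each role class in replicate 1 (dark bars) and replicate 2 (light bars). The LGR receptors stand highest at 115 and 157, the frizzled receptors are nearly even at 58.3 and 63.7, and the antagonists go from 47.8 to 9.92.

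*Axin2*, which β-catenin induces in most tissues and whose protein restrains it in turn, was low in both libraries. On chromosome 11 from 108920349 to 108950783, it had 0.158 CPM in replicate 1 and, in replicate 2, 0.617 CPM, from about 7 and 26 reads. *Lef1*, on chromosome 3 from 131110471 to 131224356, and *Tcf7* encode transcription factors that partner β-catenin. *Lef1* had 1.89 and 21.7 CPM, 11.5 times as much in replicate 2. *Tcf7* had 1.73 and 4.37 CPM, which was 2.52 times as much. Of this pair *Tcf7* was the higher per kilobase in replicate 1, by a log2 ratio of *Lef1* to *Tcf7* of -1.62, and *Lef1* in replicate 2, at 0.57.

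The intracellular and accessory genes of the pathway were described from 5 lists, of which 50 of the 64 genes listed had a mean of at least 1 CPM. Of these 50, 12 were more than 2-fold higher and 3 more than 2-fold lower in replicate 2, against 11.4% and 3.71% of all genes, with a median log2 ratio of 0.35. After trimmed-mean scaling 6 of the 50 were higher and 3 lower, against 7.5% and 5.89% of all genes. The 2 genes for WNT secretion were within 2-fold, with *Wls*, whose protein carries WNT ligands to the surface, at 118 and 129 CPM and *Porcn*, which encodes the lipid-adding enzyme, at 3.42 and 2.06 CPM.

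Of the 19 expressed genes of β-catenin destruction and transcription, 1 passed 2-fold, against 15.1% of all genes in either direction, and none did after trimmed-mean scaling, against 13.4%. The median log2 ratio of this list was 0.41. *Ctnnb1*, which encodes β-catenin, had 412 and 673 CPM, and *Gsk3b*, for the kinase that marks it for destruction, 65.3 and 63.9 CPM. *Tcf7l1* and *Tcf7l2*, for the other TCF factors, had 9.70 and 19.0 CPM and 13.6 and 14.9 CPM. The gene past 2-fold was *Tle3*, for a co-repressor, with 8.25 and 19.5 CPM.

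Among 12 expressed genes for receptor turnover, further co-receptors and planar polarity, *Znrf3*, *Ptk7* and *Prickle2* were more than 2-fold higher in replicate 2 and *Celsr2* was lower, where 11.4% and 3.71% of all genes were. *Znrf3* encodes a ubiquitin ligase that removes frizzled receptors and is opposed by R-spondins, and it had 4.74 and 9.92 CPM, while the related *Rnf43* was at 0 and 0.0237 CPM. The polarity cadherin gene *Celsr2* had 11.6 and 0.996 CPM. The dishevelled genes were steady, with *Dvl1* at 57.5 and 60.3 CPM and *Dvl3* at 56.5 and 71.7 CPM. The median log2 ratio of this list was 0.26. After trimmed-mean scaling 1 gene, *Ptk7*, was more than 2-fold higher and 1, *Celsr2*, lower, against 7.5% and 5.89% of all genes.

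Other extracellular modulators included *Serpinf1* at 913 and 715 CPM, *Igfbp4* at 251 and 268 CPM and *Cthrc1* at 110 and 85.2 CPM. Of the 6 with at least 1 CPM, *Tpbg* and *Bambi* were more than 2-fold higher in replicate 2, against 11.4% of all genes, and the list had a median log2 ratio of -0.13. *Sost*, which encodes the osteocyte antagonist sclerostin, was listed at 0 in both libraries, as were *Sostdc1* and *Cpz*.

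Genes that β-catenin induces in many tissues, which also answer to other signals, included 6 of 11 that were more than 2-fold higher in replicate 2 and 2 that were lower, against 11.4% and 3.71% of all genes. The list had a median log2 ratio of 1.16. After trimmed-mean scaling 3 were higher, *Cd44*, *Ccnd1* and *Nkd2*, and 2 lower, against 7.5% and 5.89%. *Cd44* had 14.7 and 126 CPM, *Ccnd1*, which encodes cyclin D1, 54.2 and 207 CPM, and *Ccn1* 197 and 441 CPM. *Nkd1*, a feedback inhibitor, had 6.70 and 2.49 CPM, *Jun* had 62.1 and 20.1 CPM, and *Sp5* was listed at 0 in both.

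**Figure D4:**
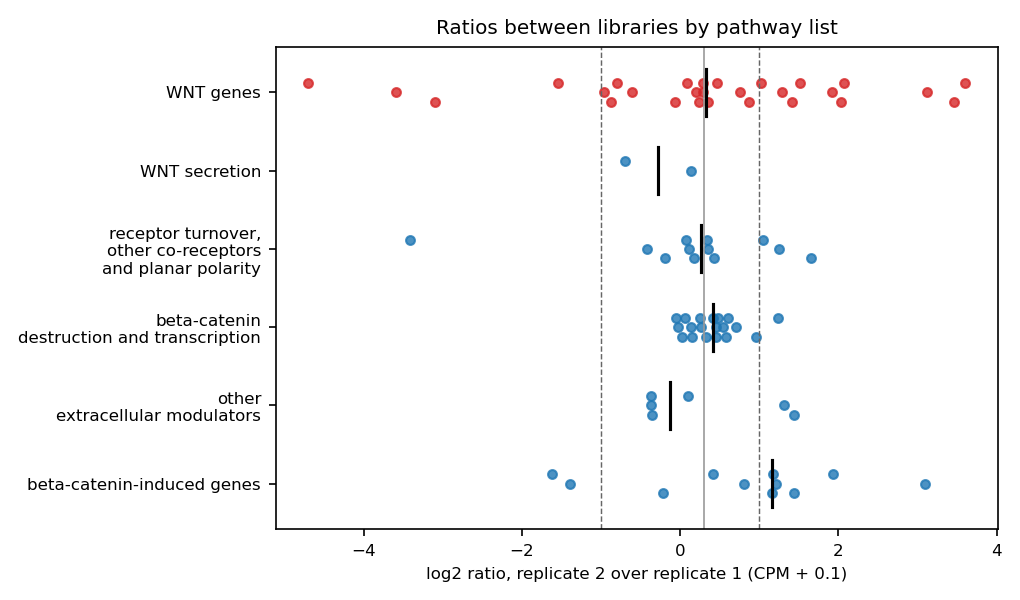
Log2 ratio of replicate 2 to replicate 1 for the WNT genes (red) and the 5 pathway lists (blue), for genes averaging 1 CPM or more, where black bars mark medians, the grey line the median of all genes (0.30) and dashed lines 2-fold, with vertical offsets only separating points. The WNT genes spread from -4.70 to 3.60, and the β-catenin destruction and transcription list stays within 2-fold but for 1 gene.

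Exons of 10 of the 48 genes, among them *Wnt5a*, *Fzd5*, *Fzd6*, *Sfrp2*, *Axin2* and *Lef1*, overlap a gene on the opposite strand. The libraries were stranded, but whether the counting used strand is not given in the sources used here. Of the 11 overlapping genes, the 7 with a value had at most 0.561 CPM. Those over *Axin2*, *Lef1*, *Rspo3* and *Wnt11* had no value.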

How the data were processed

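Both libraries of *Sox9*GFPHi chondrospheres were poly(A)-selected, stranded and sequenced as single-end reads of 50 bases. Per the submitters' processing notes and the methods, the authors used Partek Flow 10.0.21.0801, aligned to GRCm38 with STAR 2.7.3a and GENCODE M25, and assigned reads with Partek E/M, which can split a read among genes. The deposited values are CPM with 0.0001 added to each, which was subtracted. Depth was read from the steps between low values. As 61.7% and 60.5% of values under 1 CPM were whole reads (within 0.01 read), no count model was fitted.

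Log2 ratios used a pseudocount of 0.1 CPM, which understates changes of low genes, and genes averaging 1 CPM or more. Fold values are plain CPM ratios. Exonic lengths and coordinates came from GENCODE M21 on GRCm38, which matched all 48 members and 97.2% of all genes. All members are named. Those with at least 10 CPM, the highest of each role, or past 2-fold had to be given by library. Members, pathway lists and marker lists were chosen with earlier results of these data known. Trimmed means left out 30% of ratios and 5% of levels on each side. The ratio step was tested on simulated counts with planted changes and counting error only, so it says nothing on the spread between replicates. Alternatives covered scaling, pseudocount, filter, length and leaving out a library. Python 3.11.15, numpy 2.4.6, pandas 2.3.3 and matplotlib 3.10.9 were used.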

Additional observations from a re-analysis of the deposited data

How the results depend on the processing

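For 50 results, 251 values were recomputed with 1 choice changed, and of those for the 28 single-gene levels 124 stayed within the SD between the libraries and 16 did not, each after the 10 highest genes were taken off the total. That setting, which raises every level by construction, gave sums of 2488 CPM for all members, 386 CPM for frizzled receptors, 336 CPM for co-receptors, 68.6 CPM for R-spondins and 1474 CPM for LGR receptors. Leaving out 1 of 2 libraries moves a mean by less than 1 SD by arithmetic, so it shows no stability.

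Genes past 2-fold and higher in replicate 2 numbered 17 with no filter on low values. Those lower in replicate 2 numbered 7 with trimmed-mean scaling and 7 with upper quartile scaling. The median log2 ratio of the WNT genes was 0.041 with trimmed-mean scaling, 0.0018 with upper quartile scaling and 0.16 without those 10 genes, since these scalings remove most of the shift of all genes.

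The log2 ratio of antagonists to ligands ranged from -0.09 to 3.68 over the libraries left out. Without replicate 1 it was -0.094, of opposite sign but near equal levels. That of *Lef1* to *Tcf7* was -0.52 as a mean, 0.73 by longest coding transcript, 1.22 with no division by length and 0.57 without replicate 1. It ranged from -1.62 to 0.57 over the libraries left out. With no division by length, *Fzd9* exceeded *Fzd7* by 0.43, *Lrp6* exceeded *Ror2* by 2.41 and *Rspo1* exceeded *Rspo3* by 3.99.

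No paired analysis was possible because both libraries belong to 1 group. The depth limits the genes near 3 reads, for which a value of 0 does not show absence.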
